A study of Rattus norvegicus with 6 samples.

Results

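The genes described here encode the proteasome, the large protease that degrades proteins tagged with ubiquitin. Every gene whose symbol is Psm followed by a letter from a to g and a number was taken, provided that a probe set of the array carried that symbol alone, and each gene was represented by its probe set with the highest mean over the 6 arrays. The rule used names and mean levels only, not a difference between groups. It gave 44 genes out of 14217 genes with such a probe set, and 58 of the 20826 probe sets with 1 symbol. By role these were 13 core subunits, 17 subunits of the regulatory particle, 5 subunits of the immunoproteasome and its activator, 2 other regulators and 7 assembly chaperones.

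Whole blood of male Sprague-Dawley rats, 8 weeks old, was compared between 3 rats whose middle cerebral artery had been occluded with a coated thread (MCAO) and 3 rats operated in the same way with an uncoated thread (sham). Blood was drawn from the heart 24 h after reperfusion, and total RNA of each rat was measured on 1 GeneChip Rat Genome 230 2.0 array. Both groups therefore shared surgery and blood collection, and the MCAO rats had been chosen by infarct index from a larger operated group, so they stand for rats with a similar infarct size. The labels number the rats of each group from 1 to 3, and values of single rats are given in that order. Whole blood holds erythrocytes, platelets and all leukocytes, and in such a sample fewer cells of a type and less RNA per cell cannot be told apart.

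The core particle of the proteasome is a barrel of stacked rings, in which alpha subunits (Psma genes) form the outer rings and gate the entry, and beta subunits (Psmb genes) form the inner rings. Psmb5, Psmb6 and Psmb7 carry the proteolytic sites. The regulatory particle caps the barrel: its ATPases (Psmc genes) unfold the substrate, and its non-ATPase subunits (most Psmd genes) bind and remove ubiquitin. Interferon-gamma induces Psmb8, Psmb9 and Psmb10, which take the places of Psmb5, Psmb6 and Psmb7 in the immunoproteasome, and Psme1 and Psme2, which form the PA28 activator. In leukocytes these subunits shape the peptides presented on MHC class I. Red cell precursors and reticulocytes also depend on proteasomes as they clear proteins during maturation.

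The 150 bases upstream of the transcription start are shown for the 5 immunoproteasome genes, because interferon response motifs are known from promoters of this group, and for Psma2, Psmb3 and Psmc5, which stand for the constitutive particle in the comparison below. They were taken from RefSeq on GRCr8 and are written 5′ to 3′ on the strand of the gene. Capitals mark matches to the 4 motifs searched. The windows are chr15:33038821-33038970 (plus strand) for Psme1, chr15:33052752-33052901 (minus strand) for Psme2, chr20:4657032-4657181 (minus strand) for Psmb8, chr20:4668850-4668999 (plus strand) for Psmb9, chr19:50743293-50743442 (minus strand) for Psmb10, chr17:55260442-55260591 (minus strand) for Psma2, chr10:83193637-83193786 (plus strand) for Psmb3 and chr10:91687403-91687552 (plus strand) for Psmc5.
Psme1: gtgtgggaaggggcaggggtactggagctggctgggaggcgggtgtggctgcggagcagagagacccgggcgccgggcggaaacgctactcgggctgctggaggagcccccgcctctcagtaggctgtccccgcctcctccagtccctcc
Psme2: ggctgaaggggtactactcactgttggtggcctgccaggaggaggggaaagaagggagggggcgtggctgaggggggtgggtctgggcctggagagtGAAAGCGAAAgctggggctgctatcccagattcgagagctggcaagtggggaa
Psmb8: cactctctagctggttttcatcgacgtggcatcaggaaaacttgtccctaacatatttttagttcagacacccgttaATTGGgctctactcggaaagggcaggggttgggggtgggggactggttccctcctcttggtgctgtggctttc
Psmb9: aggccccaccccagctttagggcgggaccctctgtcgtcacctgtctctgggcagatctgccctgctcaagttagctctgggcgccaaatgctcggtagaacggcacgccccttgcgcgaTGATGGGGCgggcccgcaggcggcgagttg
Psmb10: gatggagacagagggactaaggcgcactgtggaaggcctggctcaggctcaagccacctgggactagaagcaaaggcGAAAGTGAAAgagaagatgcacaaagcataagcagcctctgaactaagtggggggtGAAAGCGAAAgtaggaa
Psma2: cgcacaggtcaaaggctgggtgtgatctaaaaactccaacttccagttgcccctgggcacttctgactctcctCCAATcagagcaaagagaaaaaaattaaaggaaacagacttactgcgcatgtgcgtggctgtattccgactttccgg
Psmb3: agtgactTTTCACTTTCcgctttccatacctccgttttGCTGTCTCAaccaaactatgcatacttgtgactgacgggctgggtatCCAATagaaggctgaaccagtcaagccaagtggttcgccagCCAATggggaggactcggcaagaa
Psmc5: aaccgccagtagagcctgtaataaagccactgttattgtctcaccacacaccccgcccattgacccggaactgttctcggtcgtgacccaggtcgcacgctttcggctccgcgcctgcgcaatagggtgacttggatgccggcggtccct

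The motifs were searched on both strands in the 250 bases upstream of the start, for which 40 of the 44 genes had an entry. The core of the interferon-stimulated response element, seen in capitals in Psme2 and Psmb10, was found in 2 of the 5 immunoproteasome promoters (40%), in 2 of 12 core promoters (16.7%) and in 1 of 14 regulatory promoters (7.14%), against 5 of all 40 proteasome promoters (12.5%) and 3.41% of 33469 promoters of the genome. Psme2 held it at positions −53 to −44 from the start, and Psmb10 held 2 copies, at −73 to −64 and at −17 to −8. The constitutive Psmb3 held a copy on the opposite strand at −143 to −134. The gamma-activated site TTCNNNGAA was found in 10% of the proteasome promoters and 7.67% of all promoters, and the copy in Psmb8 lies at −245 to −237, upstream of the bases printed. The CCAAT box was found in 9 of 12 core promoters (75.0%), in 5 of 14 regulatory promoters (35.7%) and in 34% of all promoters. In the immunoproteasome group 1 of 5 promoters held it (20%). TGANNNNGC is the core of the antioxidant response element bound by the proteasome gene activators Nfe2l1 and Nfe2l2. It was found in 50% of the core promoters, 40% of all proteasome promoters and 34.7% of all promoters. The share was 35.7% of 14 regulatory promoters and 20% of 5 immunoproteasome promoters. Each match is a description of letters in the window and was tested by no measurement of these data.

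Of the 5 immunoproteasome genes, Psmb8, Psmb9, Psme1 and Psme2 lie close to each other in pairs. In the GRCr8 order of protein-coding genes on chromosome 20, Tap2, Psmb8, Tap1 and Psmb9 follow each other, where Tap1 and Tap2 form the transporter that carries proteasome products into the endoplasmic reticulum. On chromosome 15, Psme1 and Psme2 are separated by Emc9 alone, and Rnf31 and Irf9 come next. Psmb10 lies apart on chromosome 19, between Ctrl and Lcat. Psmb5 is followed on the same chromosome by Psmb11, the thymus-specific subunit.

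The deposited values are on a log2 scale and were summarised with Distribution Free Weighted (DFW), which contracts differences between arrays strongly and unequally. The median SD over the 6 arrays was 2.46e-06 log2 units over all probe sets, so values of single rats are given as deviations from the mean of the 6 arrays in millionths of a log2 unit (1e-06). They are differences on the DFW scale and cannot be read as fold changes of RNA. The proteasome genes were among the probe sets with a wider spread, since their SDs had a median percentile of 89.2 and 42 of 44 lay above the median SD of all probe sets. The array of MCAO rat 1 stood apart with the lowest array median, 5.56433 log2 units against 5.56438 to 5.56440 on the other arrays. Medians of the core, regulatory and immunoproteasome genes and counts of lower means by role or list are therefore also given without this rat. So are the larger differences of the named proteasome genes, some of which shrank and some of which grew.

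No proteasome gene passed the test between MCAO and sham rats. Rank Products, which ranks probe sets in each of the 9 pairs of arrays, 1 from either group, and estimates the false discovery rate (FDR) by permutation, called 0 of the 44 genes lower in MCAO at an FDR under 0.05, where it called 0.615% of the 31042 probe sets tested. It called 0 of 44 higher, where it called 0.135% of the probe sets. Counted once per gene by the brightest probe set, 135 of 14217 genes were called lower and 20 higher. All of them had an SD over the 6 arrays in the top 10% of probe sets. That band held 2038 genes and 20 of the 44 proteasome genes. For proteasome genes outside it, the missing call therefore says little. limma called 0 proteasome genes after Benjamini-Hochberg adjustment over all probe sets and 0% of the probe sets. At an unadjusted limma p under 0.05 there were 2 proteasome genes, Psmc5 and Psmg3 (4.55% of 44), where 3.70% of all probe sets passed. All 3 MCAO rats lay below all 3 sham rats in 3 proteasome genes, Psmb2, Psmc5 and Psmd13 (6.82%), against 3.60% of all probe sets, and above them in 1, Psmg3 (2.27%), against 4.82%. After quantile normalization none of these genes separated the groups, and with centred arrays only Psmg3 of them did. Complete separation gives an exact two-sided permutation p of 0.1, the smallest that 3 against 3 rats allow. These shares are close to the background, and none of the counts is a result about the proteasome genes as a group.

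The mean was lower in MCAO in 38 of the 44 proteasome genes (86.4%), but this count fell to 27 after quantile normalization and to 21 with each array centred on its median, and it was 34 without MCAO rat 1. Of all 14217 genes, 50.2% had a lower mean in MCAO, 39.6% after quantile normalization and 11.1% with centred arrays. A difference of 0, as quantile normalization gave for Psmb9 and Psme2, was not counted as lower, so a smaller count need not mean reversed signs. The lower mean was found in 13 of 13 core genes, 5 of 5 immunoproteasome genes, 13 of 17 regulatory genes, 2 of 2 other regulators and 5 of 7 assembly chaperones. After quantile normalization these counts were 9, 2, 12, 0 and 4, with centred arrays 10, 4, 5, 2 and 0, and without MCAO rat 1 they were 10, 4, 14, 2 and 4. The median difference, MCAO minus sham, was −109.7 millionths in the core genes, −74.6 in the immunoproteasome genes, −16.1 in the regulatory genes and −2.02 in the assembly chaperones. Over all genes it was −0.003. The pooled SD between rats of a group was 125 millionths for the median of the core genes and 144 for the immunoproteasome genes, larger than either difference, and 12.8 for the regulatory genes. Without MCAO rat 1 the 3 medians were −55.2 millionths (core), −9.42 (immunoproteasome) and −10.5 (regulatory). Other rats moved them as well: the core median was −26.5 without sham rat 3 and −174 without MCAO rat 3, the immunoproteasome median −34.9 without sham rat 2 and −169 without MCAO rat 3, and the regulatory median −5.27 without sham rat 2 and −24.1 without sham rat 1. After quantile normalization the core median was −67.3 and the immunoproteasome median 0. Centring the arrays shifted every difference between groups by 29.8 millionths, which is more than the size of the difference in 23 of the 44 genes, and the median of the regulatory genes was then 13.6.

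**Figure D1:**
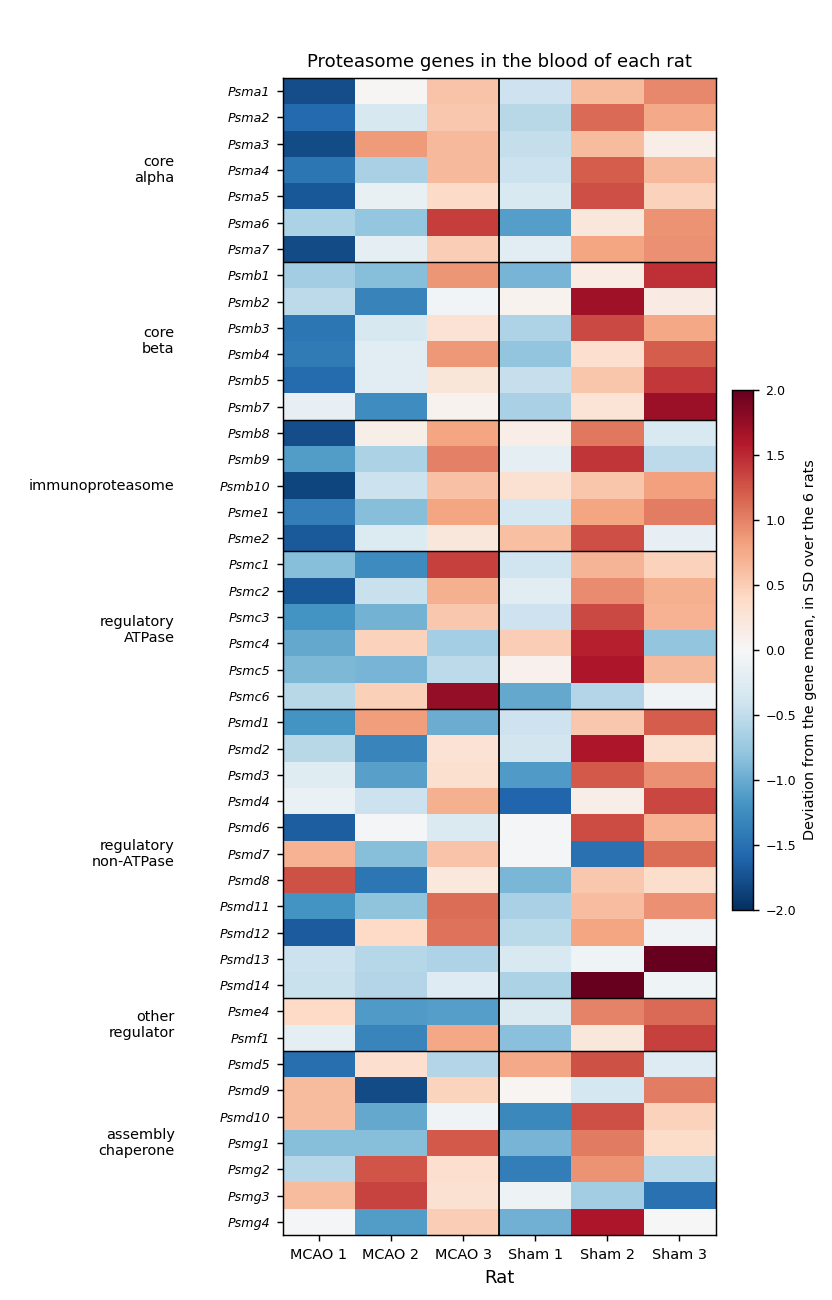
Heat map of the 44 proteasome genes (rows, grouped by role) in the 3 MCAO and 3 sham rats (columns), each cell showing the deviation of the gene in that rat from its mean over the 6 arrays, in units of the gene's SD over the 6 arrays. MCAO rat 1 held the lowest value in 22 genes, and sham rat 2 or sham rat 3 the highest in 34. The 38 genes with a lower mean in MCAO were 27 after quantile normalization and 21 with arrays centred on their medians.

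The proteasome genes, like other genes with a wide spread, divided the rats, but not along the line between the groups. In units of each gene's SD, the median deviation over the 44 genes was −0.96 in MCAO rat 1, −0.57 in MCAO rat 2 and 0.49 in MCAO rat 3, against −0.41 in sham rat 1, 0.84 in sham rat 2 and 0.70 in sham rat 3. MCAO rat 3 thus lay with sham rats 2 and 3, and sham rat 1 lay with MCAO rats 1 and 2. The profile is not particular to the proteasome genes. The 2038 genes with an SD in the top 10% of probe sets include 20 of them. Their medians were −1.13, −0.33 and 0.59 in the MCAO rats and −0.33, 0.59 and 0.69 in the sham rats. The lowest value was found in MCAO rat 1 in 22 of the 44 genes (50%; 23.2% of all genes) and in MCAO rat 1 or 2 in 32. The highest was found in sham rat 2 or 3 in 34 genes (77.3%), against 34.8% of all genes. Over the 946 pairs of proteasome genes the median correlation across the 6 arrays was 0.52, and it was above 0 in 84.8% of the pairs. The correlation of pairs of other genes was not computed. The points share 6 arrays and their normalization, so this is a description with no test.

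Other genes with a wide spread also tended to be lowest in MCAO rat 1 and highest in sham rat 2 or 3, though in smaller shares than the proteasome genes of the same band. A difference between groups itself widens the SD by which the bands were set. Among the 2018 other genes whose SD lay in the top 10% of probe sets, the mean was lower in MCAO in 78.0%, the lowest value was in MCAO rat 1 in 57%, and the highest was in sham rat 2 or 3 in 59.1%. The 20 proteasome genes of that band had a lower mean in 19 (95%), the lowest value in MCAO rat 1 in 14 (70%) and the highest in sham rat 2 or 3 in all 20 (100%). In the band between the median SD and the top 10%, the mean was lower in 17 of 22 proteasome genes (77.3%) and in 46.7% of 6100 other genes, and the highest value was in sham rat 2 or 3 in 13 (59.1%) against 32.7%. The lowest value was in MCAO rat 1 in 6 of these 22 (27.3%) and in 23.7% of the others. The remaining 2 genes, Psmd5 and Psmd12, had an SD under the median. A high share in sham rats 2 and 3 was not particular to proteasome genes. Of the 25 ubiquitin-proteasome genes listed below, 5 were highest in sham rat 2 and 15 in sham rat 3. So were 5 of 7 erythroid and 4 of 4 B cell markers in sham rat 3, and 6 of 8 T cell and 4 of 6 NK cell markers in sham rat 2. In contrast, 9 of 11 antigen processing genes and 7 of 7 neutrophil, 5 of 6 monocyte and 5 of 5 platelet markers were highest in MCAO rat 3. No test of these shares was run, since genes are not replicates.

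**Figure D2:**
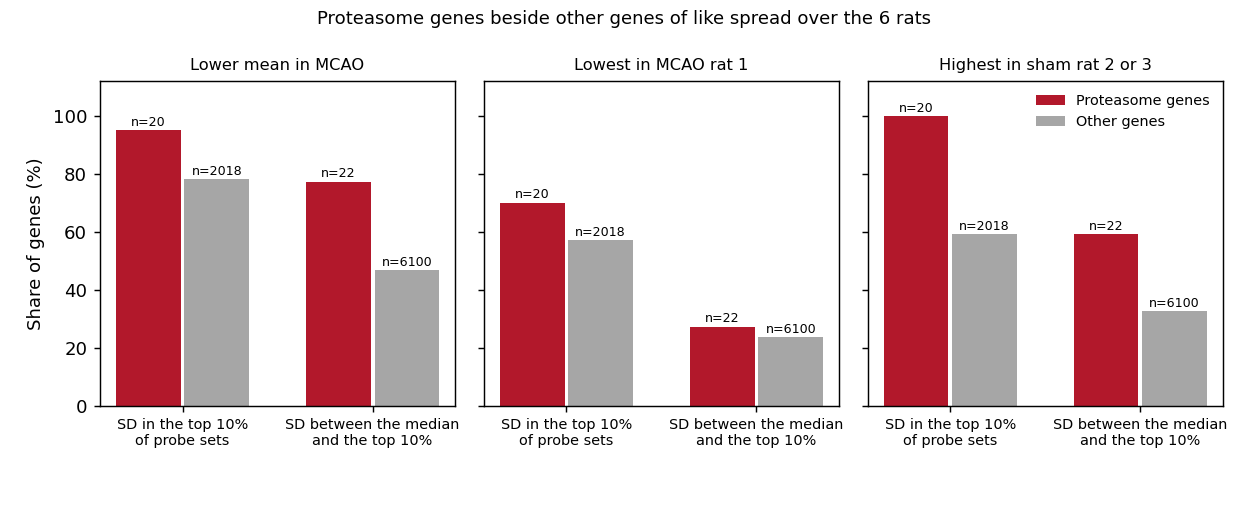
Share of genes (percent) with a lower mean in MCAO, with their lowest value in MCAO rat 1 and with their highest value in sham rat 2 or 3, for proteasome genes and all other genes, in 2 bands of SD over the 6 arrays. In the top 10% of SDs 95% of 20 proteasome genes and 78.0% of 2018 other genes had a lower mean in MCAO, and in the middle band 77.3% of 22 and 46.7% of 6100, on the deposited scaling; over all 44 proteasome genes the count of 38 became 27 after quantile normalization and 21 with centred arrays.

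Among the immunoproteasome genes, Psme1 had the largest difference of all 44 genes and Psmb10 one of a few millionths. Psme1, a subunit of the PA28 activator, had a mean of 7.40 log2 units. Its deviations were −2409, −1478 and 1365 millionths in the MCAO rats and −618, 1366 and 1774 in the sham rats. MCAO rat 3 stood level with sham rat 2 and above sham rat 1, so the groups overlapped. The difference was −1681 millionths ± 1274 (SE, n = 3 per group; 95% interval −5065 to 1702; limma adjusted p = 1), and the Rank Products FDR of 0.0679 was the lowest of all proteasome genes. Without MCAO rat 1 the difference was −897 millionths. Psme1 passed Rank Products with MCAO rat 3, the MCAO rat that overlapped the sham rats, left out (FDR 0.00776). It also passed when same-numbered rats were set against each other (0.0160). Its FDR rose to 0.151 among the brighter probe sets and to 0.207 without MCAO rat 2. Without sham rat 1, 2 or 3 it was 0.210, 0.414 and 0.594, so the value was not stable. A second Psme1 probe set, at 5.52 log2 units, had a difference of 0.0520 millionths ± 0.483 (SE, n = 3 per group).

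Psme2, the partner of Psme1 in the PA28 ring, deviated by −73.7, −12.2 and 10.3 millionths in the MCAO rats and by 26.7, 56.5 and −7.43 in the sham rats. MCAO rat 1 was lowest and the other 5 rats overlapped, with a difference of −50.5 ± 29.3 millionths (SE), or −26.2 without MCAO rat 1. Psmb8, the inducible counterpart of Psmb5, deviated by −463, 29.3 and 207 millionths in the MCAO rats and by 34.5, 274 and −81.4 in the sham rats. Its low mean in MCAO came from rat 1, and without that rat the difference of −151 millionths was 42.7. Psmb9, the inducible counterpart of Psmb6, deviated by −168, −95.6 and 151 millionths in MCAO and by −26.9, 217 and −77.9 in sham rats, a difference of −74.6 ± 125 (SE) that was −9.42 without MCAO rat 1. Psmb10, the inducible counterpart of Psmb7, deviated by −7.26, −1.69 and 2.31 millionths in MCAO and by 1.19, 2.21 and 3.25 in sham rats. All 5 genes were lowest in MCAO rat 1, and none separated the groups. With arrays centred on the median the difference of Psmb10 changed sign, from −4.43 to 25.4 millionths, and it was −1.91 without MCAO rat 1, and after quantile normalization that of Psmb8 became 264 and those of Psmb9 and Psme2 became 0.

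The constitutive subunits that Psmb8 and Psmb10 replace also had overlapping groups. Psmb5 deviated by −74.3, −10.2 and 12.0 millionths in the MCAO rats and by −22.1, 26.6 and 68.1 in the sham rats. Psmb7 deviated by −15.6, −114 and 6.87 millionths in MCAO and by −59.3, 25.5 and 156 in sham rats. Both were highest in sham rat 3, as was Psmb10, while Psmb8 and Psmb9 were below their means in that rat. The difference of Psmb5 was −48.4 ± 34.5 millionths (SE), or −23.3 without MCAO rat 1. That of Psmb7 was −81.6 ± 68.5 (SE), or −94.2 without MCAO rat 1. Both changed sign after quantile normalization, to 594 and 71.3. The probe set of Psmb6 carried a second symbol, and Psmb6 is not one of the 44 genes.

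The core genes all had a lower mean in MCAO as deposited, with small to large differences. The 7 alpha subunits, Psma1 to Psma7, had their lowest value in MCAO rat 1 in 6 genes, and the differences between groups ran from −314 to −0.234 millionths. The 6 beta subunits, Psmb1, Psmb2, Psmb3, Psmb4, Psmb5 and Psmb7, ran from −243 to −8.90. The largest belonged to Psma2 and Psmb3. Psma2, an alpha ring subunit, deviated by −548, −114 and 192 millionths in the MCAO rats and by −197, 399 and 268 in the sham rats, with a difference of −314 ± 264 (SE), or −118 without MCAO rat 1. Psmb3, a beta subunit without a proteolytic site, deviated by −356, −80.8 and 72.7 millionths in MCAO and by −154, 328 and 189 in sham rats, with a difference of −243 ± 179 (SE), or −125 without MCAO rat 1. In both genes MCAO rat 3 lay above sham rat 1, and the groups overlapped. Psmb2 alone among the core genes separated them on the deposited scaling, although within a narrow range: −3.65, −9.27 and −0.428 millionths in MCAO and 0.457, 11.8 and 1.10 in sham rats. Psmb2 is named because its groups did not overlap and so was chosen by its values. At the other end, Psma6, the brightest proteasome gene at 8.74 log2 units, had a difference of −0.234 ± 9.36 millionths (SE), and Psma3 one of −1.08 ± 4.77.

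**Figure D3:**
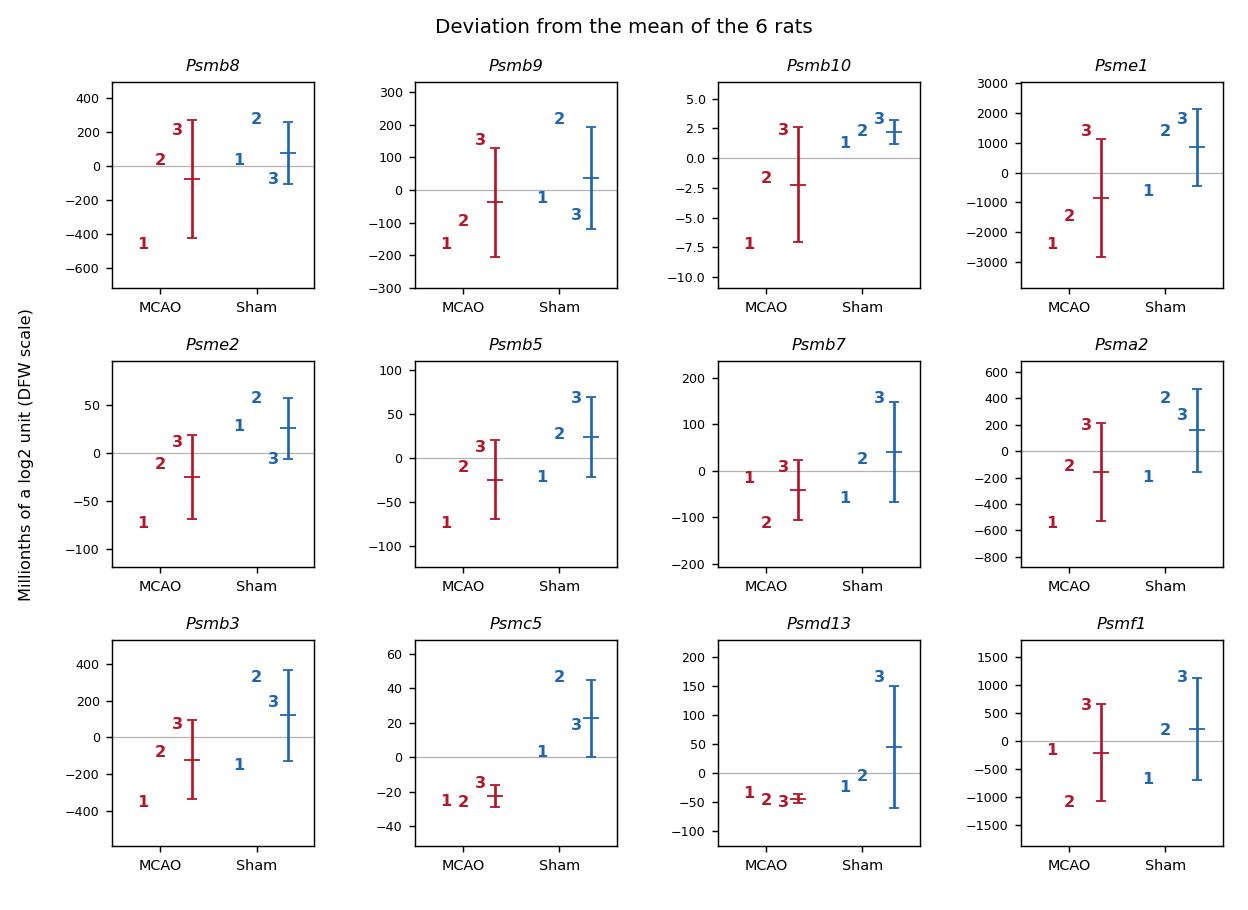
Deviation from the mean of the 6 arrays, in millionths of a log2 unit, of 12 proteasome genes in MCAO and sham rats, with a separate vertical scale for each gene, the digits giving the rat and the bars the mean and SD of each group (n = 3). In Psme1, MCAO rat 3 (1365) lies level with sham rat 2 (1366), while Psmc5 has all 3 MCAO rats below all 3 sham rats on the deposited scaling.

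In the regulatory particle, the ATPase Psmc5 and the non-ATPase Psmd13 separated the groups on the deposited scaling. Psmc2, Psmd13 and Psmd6 had the largest differences between groups. The widest spread over the 6 arrays was that of Psmd4, with an SD of 221 millionths against 147 for Psmc2. Psmc5 deviated by −25.8, −26.3 and −15.1 millionths in the MCAO rats and by 2.38, 46.2 and 18.5 in the sham rats. On the deposited scaling the MCAO rats lay close together and below every sham rat. With centred arrays and after quantile normalization the groups overlapped. The difference was −44.8 ± 12.5 millionths (SE, n = 3 per group; 95% interval −78.0 to −11.5), with an unadjusted limma p of 0.0190, an adjusted p of 1 and a Rank Products FDR of 0.371. Centred on array medians, it was −15.0 millionths, and without MCAO rat 1 it was −43.1. Psmc2, another ATPase, deviated by −249, −64.8 and 105 millionths in MCAO and by −32.8, 138 and 104 in sham rats, a difference of −139 ± 108 (SE), or −49.7 without MCAO rat 1, with MCAO rat 3 among the sham rats. The other ATPases Psmc1, Psmc3, Psmc4 and Psmc6 had differences of −1.41, −41.0, −16.5 and 11.3 millionths.

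Among the non-ATPase subunits, Psmd13, part of the lid of the regulatory particle, deviated by −36.0, −46.9 and −50.9 millionths in MCAO and by −25.3, −6.62 and 166 in sham rats. The groups did not overlap on the deposited scaling, but sham rat 3 alone was far from the other 5 rats. The difference was −89.2 ± 57.4 millionths (SE), or −93.5 without MCAO rat 1. Psmd6, another lid subunit, deviated by −101, −1.31 and −17.7 millionths in MCAO and by −1.80, 79.3 and 42.7 in sham rats, with a difference of −80.2 ± 36.5 (SE), or −49.6 without MCAO rat 1. Here MCAO rat 2 was just above sham rat 1. The other 9 non-ATPase genes lay between −20.1 (Psmd11) and 20.3 (Psmd4) millionths. Psmd4, a receptor for ubiquitin chains, had the highest difference of all 44 genes at 20.3 ± 189 (SE), with its lowest value in sham rat 1 (−350.1) and its highest in sham rat 3 (294). Psmd14, the enzyme that removes ubiquitin from the substrate, differed by −16.1 ± 14.36 millionths (SE), with 37.8 in sham rat 2 and values between −12.0 and −1.52 in the other 5 rats. The remaining genes Psmd1, Psmd2, Psmd3, Psmd7, Psmd8 and Psmd12 differed by −7.86, −17.0, −5.29, 3.26, 1.21 and −0.0860 millionths.

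The other regulators had wide spreads and the assembly chaperones narrow ones. Psmf1, an inhibitor of the core particle (PI31), deviated by −166, −1102 and 639 millionths in MCAO and by −699, 192 and 1136 in sham rats. MCAO rat 2 and sham rat 1 were low and MCAO rat 3 and sham rat 3 high, and the difference was −419 ± 687 (SE). It changed sign after quantile normalization (564), without MCAO rat 2 (27.2) and without sham rat 3 (44.1). Without MCAO rat 1 it was −441. Psme4, the PA200 activator, deviated by 57.3, −165 and −161 millionths in MCAO and by −43.3, 145 and 166 in sham rats. The difference was −179 ± 93.2 (SE), or −252 without MCAO rat 1, and became 231 after quantile normalization. A further Psme4 probe set, at 6.49 log2 units, gave −92.2 ± 48.1 (SE), with MCAO rats 2 and 3 again lowest. MCAO rat 1, the lowest rat in most core genes, was above the mean in both, while the dimmest Psme4 probe set, at 5.42 log2 units, differed by −2.18 ± 3.78 (SE).

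Psmg3, 1 of the 7 assembly chaperones, acts in the formation of the alpha ring. Its mean of 5.47 log2 units lay below every array median. On the deposited scaling Psmg3 was the only proteasome gene with all MCAO rats above all sham rats. It deviated by 2.47, 5.25 and 1.16 millionths in MCAO and by −0.377, −2.71 and −5.79 in sham rats, a difference of 5.92 ± 1.88 (SE). The unadjusted limma p was 0.0291, the limma adjusted p was 1 and the exact permutation p was 0.1. Psmg2, which pairs with Psmg1 in the same process, deviated by −3.60, 8.04 and 2.10 millionths in MCAO and by −8.83, 5.72 and −3.42 in sham rats, with overlapping groups and a difference of 4.36 ± 5.10 (SE) that was −13.4 after quantile normalization. Psmg1, Psmg4, Psmd9, Psmd10 and Psmd5 had differences of −2.02, −2.73, −3.84, −2.08 and −0.568 millionths. Differences of a few millionths are close to the median SD of all probe sets.

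Genes that work with the proteasome were not called either. Of a list of 33 symbols for ubiquitin activation, shuttling and proteasome regulation, which holds Ufd1 and Sem1 also under their older symbols Ufd1l and Shfm1, 25 had a probe set, Rank Products called 0, and the mean was lower in MCAO in 19 (76%), in 18 after quantile normalization, in 9 with centred arrays and in 18 without MCAO rat 1. Their median difference was −8.66 millionths. Ubqln4, a shuttle factor for ubiquitinated proteins, had the largest difference, with −357, −965 and 31.2 millionths in MCAO and −136, 185 and 1242 in sham rats (difference −861 ± 477, SE; Rank Products FDR 0.0865). Fbxo7, a ubiquitin ligase adaptor that binds Psmf1, followed at −685 ± 308 (SE; FDR 0.113). In a list of 12 antigen processing genes, 11 had a probe set, Rank Products called 0 and the mean was lower in MCAO in 8 (72.7%), in 6 after quantile normalization, in 4 with centred arrays and in 3 without MCAO rat 1, where their median difference turned from −14.5 to 19.7 millionths. Calr, a chaperone of MHC class I loading, had a difference of −199 ± 194 millionths (SE) and Irf1, an interferon-induced activator of Psmb8, Psmb9 and Tap1, one of −165 ± 255 (SE). The transporter genes Tap1 and Tap2 differed by 5.76 ± 20.4 and 5.22 ± 27.8 millionths (SE).

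The medians of the core, regulatory and immunoproteasome genes are given next for each rat. In units of the gene's SD the core genes stood at −1.44, −0.32 and 0.54 in the MCAO rats and at −0.48, 0.64 and 0.91 in the sham rats. The regulatory genes stood at −0.85, −0.58 and 0.32 in MCAO and at −0.41, 0.79 and 0.69 in sham rats. The immunoproteasome genes stood at −1.68, −0.43 and 0.78 in MCAO and at 0.13, 1.05 and −0.17 in sham rats, so that the median in sham rat 3 was high for the core and slightly below 0 for the immunoproteasome. The 5 immunoproteasome genes went both ways in that rat: Psme1 and Psmb10 had their highest value there (1.02 and 0.82), and Psme2, Psmb8 and Psmb9 were below their means (−0.17, −0.31 and −0.52). The antigen processing list had a median of −0.08 in sham rat 3 and the ubiquitin-proteasome list 0.95. No test of these contrasts between role groups was run, because a rat and its array are the unit and each contrast rests on 1 rat.

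**Figure D4:**
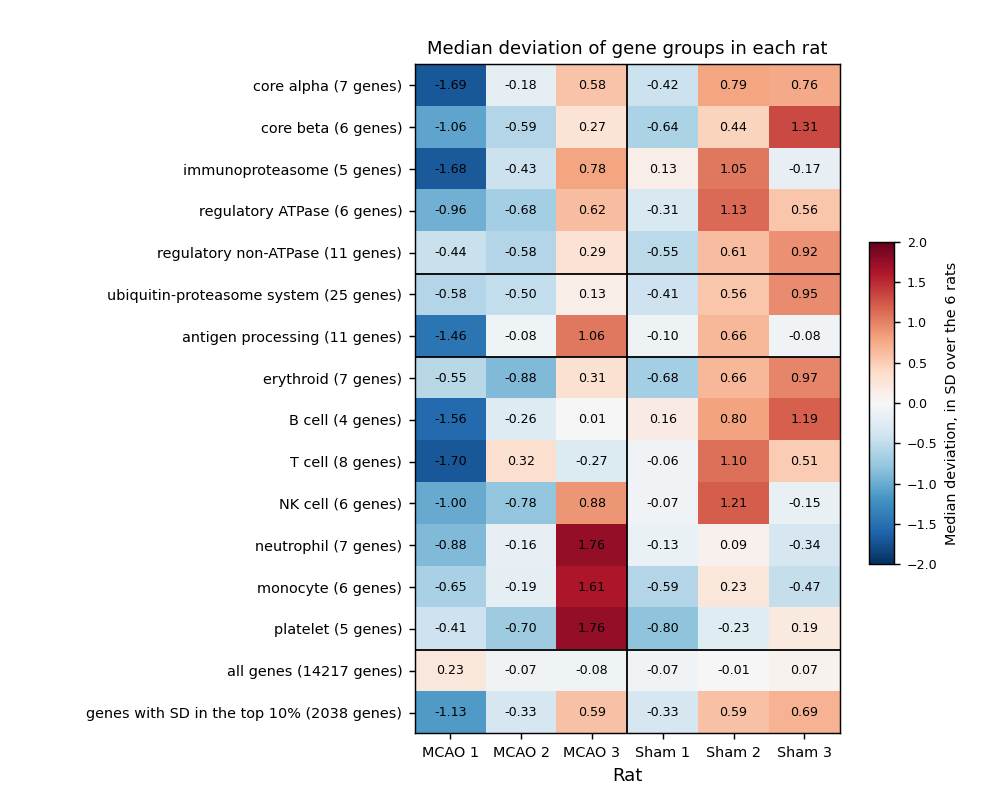
Median deviation, in units of each gene's SD over the 6 arrays, of the core, immunoproteasome and regulatory genes, the gene lists, the cell type markers and all genes (rows) in each of the 6 rats (columns). MCAO rat 1 is lowest for core alpha (−1.69), core beta (−1.06) and immunoproteasome genes (−1.68), sham rat 3 is at 0.76, 1.31 and −0.17 for the same groups, and all genes together lie between −0.08 and 0.23. Genes with an SD in the top 10% stand at −1.13, −0.33 and 0.59 in MCAO rats and at −0.33, 0.59 and 0.69 in sham rats.

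Marker genes of blood cell types were low or high in some of the same rats. The counts of lower means given here for T cell, B cell, NK cell and erythroid markers were 5, 3, 4 and 1 after quantile normalization and 5, 3, 5 and 5 with centred arrays. Without MCAO rat 1 they were 7, 4, 4 and 7, and those of neutrophil, monocyte and platelet markers were 0, 1 and 0. After quantile normalization the median erythroid difference was 0, and a difference of 0 is not counted as lower. All 8 measured T cell markers had a lower mean in MCAO, with medians of −1.70, 0.32 and −0.27 in the MCAO rats and −0.06, 1.10 and 0.51 in sham rats, and a summed level of 50.604 to 50.618 log2 units in MCAO and 50.615 to 50.625 in sham rats. All 4 B cell markers had a lower mean, with −1.56 in MCAO rat 1 and 1.19 in sham rat 3 and summed levels of 25.081 to 25.088 against 25.089 to 25.094. All 6 NK cell markers had a lower mean, with −1.0 in MCAO rat 1, 1.21 in sham rat 2 and −0.15 in sham rat 3, and summed levels of 35.831 to 35.847 against 35.840 to 35.850. The profile of the 7 erythroid markers, all with a lower mean in MCAO, was −0.55, −0.88 and 0.31 in the MCAO rats and −0.68, 0.66 and 0.97 in the sham rats, with summed levels of 72.342 to 72.349 against 72.344 to 72.363. Markers of neutrophils, monocytes and platelets had a lower mean in MCAO in 2 of 7, 1 of 6 and 1 of 5 genes and were highest in MCAO rat 3, with medians of 1.76, 1.61 and 1.76. Their summed levels ranged from 45.806 to 46.043 against 45.881 to 45.916 for neutrophils, 40.657 to 40.733 against 40.681 to 40.717 for monocytes and 44.333 to 44.336 against 44.333 to 44.334 for platelets. Rank Products called Tfrc (1 of 7 erythroid markers) and Ms4a1 and Cr2 (2 of 4 B cell markers) lower in MCAO. Also called lower were Cd3g (1 of 8 T cell), Prf1 (1 of 6 NK cell) and S100a9 (1 of 7 neutrophil markers). Csf3r (neutrophil) was called higher, and no monocyte or platelet marker was called. Over all 31042 probe sets 0.615% were called lower and 0.135% higher. The mean of S100a9 was nevertheless higher in MCAO by 2711 millionths, with MCAO rat 1 lowest and MCAO rat 3 highest. On this log2 scale no measured marker is at 0, and the values hold no background estimate by which presence could be judged. The part of blood cell composition in the profile of the proteasome genes was not tested.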

How the data were processed

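RNA of 6 rats was measured on 6 arrays. The authors deposited log2 values that had been normalized and summarised with DFW. No log base is stated, and log2 was taken from the range of 4.93 to 14.43. Of 31099 probe sets, 57 controls were left out. Symbols came from the platform annotation. For Rank Products a Python 3.11.15 version (numpy 2.4.6, pandas 2.3.3) was made, with 100 permutations of probe sets within arrays. limma 3.58.1 in R 4.3.3 gave differences, SEs and Benjamini-Hochberg adjusted p-values over all 31042 probe sets. Both were run on simulated normal noise with known shifts, and the outcome is not given here. The FDRs of this Rank Products version were not set beside those of the study. Exact permutation tests were two-sided over 10 splits.

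The members, lists, tests and alternatives were chosen with earlier results of these data known. Named by rule were genes called (none was), the 5 immunoproteasome genes, Psmb5 and Psmb7, and the 2 largest differences among core genes, regulatory ATPases, regulatory non-ATPases, other regulators and assembly chaperones, and others were named for their values. Alternatives were other scalings, a filter on dim probe sets, rank sums, a stricter FDR, other variance settings, another probe set per gene, a replicate block and each rat left out. Promoters and gene order came from RefSeq on GRCr8, without the bases after the start. The number of arrays limits the precision.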

Additional observations from a re-analysis of the deposited data

How the results depend on the processing

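Of 271 values recomputed under 16 settings, 240 neither changed sign nor crossed the limit set for them, counting 3 that fell to 0 after quantile normalization (Psmb9, Psme2 and the immunoproteasome median). This count is no measure of stability. The replicate block and the filter on dim probe sets cannot change a gene's difference, and another probe set per gene changed none of the named genes. For a group median the limit was the pooled SD between rats. At 125 millionths for the core and 144 for the immunoproteasome it exceeded the medians themselves. Rank Products called 1 proteasome gene lower, Psme1, with the replicate block (difference −1681 millionths) and without MCAO rat 3 (−2784), so the count without 1 rat ranged from 0 to 1; it called 0 under the other settings. Under quantile normalization no groups were separated (0 genes against 4), 0 genes had an unadjusted limma p under 0.05 (against 2), and the medians were −31.8 millionths for the regulatory genes, −67.3 for the core and 0 for the immunoproteasome. With centred arrays 12 genes separated the groups, 1 had such a p, and the regulatory median was 13.6. In all 12 the MCAO rats lay above the sham rats, and Psmb2, Psmc5 and Psmd13 were not among them. Centring had moved every difference up by 29.8 millionths, so this larger count is no support for lower values in MCAO. Keeping the probe sets with a mean above the median left 1 such gene and the replicate block gave 6. Without 1 rat, 4 to 19 genes separated the groups, a count that smaller groups raise by construction, and 0 to 5 had an unadjusted p under 0.05. Same-numbered rats correlated at 0.26, 0.06 and 0.08 over all genes, and differently numbered rats at −0.29 to 0.21. The deviations were centred within each group, which ties these values to each other, so they do not decide whether the numbers mark pairs. The labels state no pairing, and the numbers were not taken as pairs.

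Of 186 values of the 17 named genes, 11 changed sign. Quantile normalization gave 594 millionths for Psmb5, 71.3 for Psmb7, 264 for Psmb8, 231 for Psme4, 564 for Psmf1 and −13.4 for Psmg2, and centring gave 25.4 for Psmb10. Without 1 rat the difference ranged from −293 to 42.7 for Psmb8, from −169 to 15.1 for Psmb9 and from −873 to 44.1 for Psmf1. The causes were not tested.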

Other observations

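Proteasome probe sets with more than 1 symbol belong to no gene above. The probe set of Psmb6, which also carries Psmb6l1, had a mean of 7.05 log2 units and deviated by 24.3, −19.1 and −12.1 millionths in MCAO rats 1 to 3 and by −14.7, 8.21 and 13.3 in sham rats 1 to 3. Its highest value was in MCAO rat 1, the rat with the lowest values of most other core genes, and the difference was −4.57 ± 15 millionths (SE, n = 3 per group). The probe set shared by Psma3 and Psma3l, at 6.30 log2 units, deviated by −196, −68.0 and 120.5 millionths in MCAO and by −154, 181 and 116 in sham rats, while the probe set with the symbol Psma3 alone stayed between −9.98 and 4.78. The 4 probe sets that carry Psme3, the PA28-gamma subunit, together with Aoc3 and G6pc1 had differences between −7.96 and 0.164 millionths.

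In 9 genes there was more than 1 probe set, with 14 in addition to those used. Probe sets of one gene did not always give the same sign. For Psmb5 the other differences were 1.48 and 0.773 millionths beside −48.4, for Psmc4 15.1 beside −16.5 and for Psmd9 4.20 beside −3.84. Psmd14 had −58.3 and 4.82 millionths beside −16.1, and Psmd11 had −27.2 and 0.546 beside −20.1. The dimmer Psmd14 probe sets thus held both a larger and an opposite difference, with SEs of 52.1 and 4.46 millionths.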
